A study of Arabidopsis thaliana with 12 samples.

Results

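AT5G52750 and AT5G52760 are neighbouring genes on Arabidopsis thaliana chromosome 5 whose products carry a heavy-metal-associated domain. They were followed through the 2 probe sets paired with exactly 1 of them, 248327_at for AT5G52750 and 248322_at for AT5G52760, which makes 2 of 13286 genes with such a probe set and 2 of 22746 probe sets tested. The pair was picked with its values on these arrays already known, as genes far higher under both agents than under either. Every value of the pair is therefore a description, without a test. Wild-type (WT) seedlings grown on MS plates gave 12 arrays in 4 groups of 3 biological replicates: BLM+INA (4 µg/ml BLM with 10 µM INA), INA alone at 10 µM, BLM alone at 4 µg/ml, and an untreated control, CK. The seedlings' age, the length of treatment and the number of seedlings per sample are not given in the sources used here. The series addresses whether a DNA-damaging agent, BLM, and an immune inducer, INA, act together on defence genes.

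The heavy-metal-associated domain is a small fold best known from copper chaperones and metal-pumping ATPases, where a cysteine pair holds the metal ion. Plants have many more small proteins with this domain than yeast or animals, and a large plant group carries a lipid anchor at its end. INA is a synthetic mimic of salicylic acid, the hormone that switches on plant defence against biotrophic pathogens, and BLM (bleomycin) breaks DNA strands. In the TAIR10.1 annotation AT5G52750 spans chr5:21383979-21385015 (1037 bp) and AT5G52760 spans chr5:21386727-21387714 (988 bp), with 1711 bp between them and no annotated protein-coding gene in that gap.

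Each value is a log2 signal from which the median of that probe set across all arrays had been subtracted, so differences between groups can be read but levels of different genes cannot be compared. Array medians lay between -0.0208 and 0.0255. Arrays have no read depth, and their number limits the precision. The spacing of the stored numbers placed the median log2 level of AT5G52750 between 4 and 8 and that of AT5G52760 under 4. The labelled tissue could be checked with 5 markers. The photosystem gene PSAN, the antenna gene LHCB4.2 and the root beta-glucosidase gene PYK10 had median levels of 8 or more, and the root hair expansin genes EXPA7 and EXPA18 lay between 4 and 8. In whole seedlings, fewer cells of a type and less RNA per cell cannot be told apart.

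AT5G52750 was highest with both agents, intermediate with either, and lowest in CK. Its centred log2 values were 3.12, 2.86 and 3.46 on the BLM+INA arrays, -0.11, -0.28 and 0.50 on the INA arrays, -0.21, 0.12 and 0.11 on the BLM arrays, and -0.82, -1.21 and -0.98 on the CK arrays. The BLM+INA arrays all lay above the other 9, the INA and BLM arrays overlapped, and the CK arrays lay below all of them. The group means were 3.14 ± 0.30 with BLM+INA, 0.04 ± 0.41 with INA, 0.01 ± 0.19 with BLM and -1.0 ± 0.20 in CK (SD, n = 3 each).

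AT5G52760 had the same order of groups. Its centred log2 values were 3.37, 2.85 and 3.10 on the BLM+INA arrays, -0.04, 0.04 and 0.45 on the INA arrays, -0.37, -0.17 and 0.24 on the BLM arrays, and -0.67, -0.59 and -0.53 on the CK arrays. Again the BLM+INA arrays stood apart at the top, the single-agent arrays overlapped each other, and CK was lowest without overlap. The group means were 3.11 ± 0.26 with BLM+INA, 0.15 ± 0.26 with INA, -0.10 ± 0.31 with BLM and -0.59 ± 0.07 in CK (SD, n = 3 each).

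**Figure D1:**
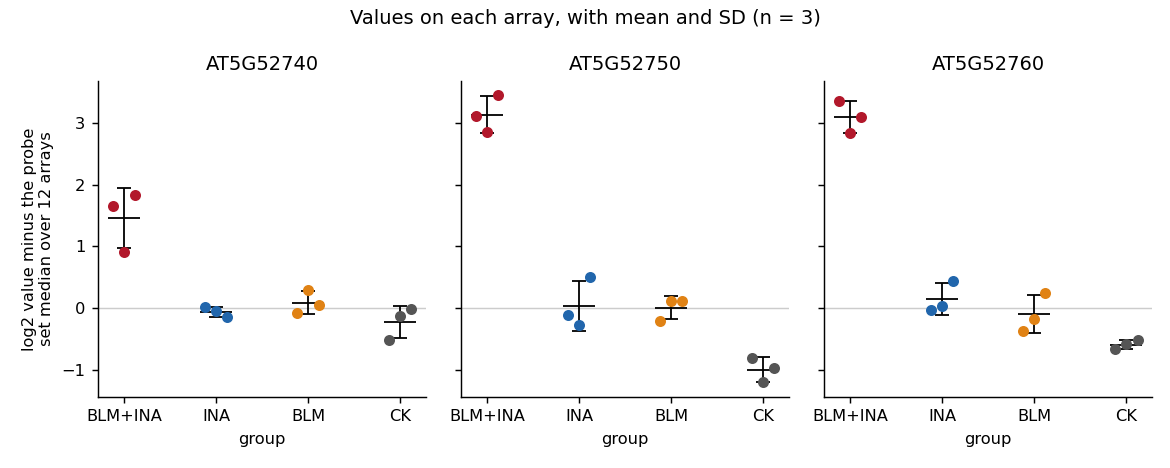
Centred log2 values (vertical axis) of AT5G52740, AT5G52750 and AT5G52760 on each array, by group, with the mean and SD of 3 arrays as black bars. In each panel the BLM+INA arrays are the 3 highest; in AT5G52750 and AT5G52760 the CK arrays are the 3 lowest.

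An arrangement in which the 3 BLM+INA arrays lie above the other 9 was found for 4.79% of all probe sets, and with a gap of at least 1 log2 unit for 0.22%, which is 50 probe sets. The gap between the lowest BLM+INA array and the highest other array was 2.40 for AT5G52760 and 2.36 for AT5G52750. These gaps stood in ranks 4 and 5 of 22746, and the pair was picked for this arrangement. Above CK without overlap lay the arrays of 19.3% of probe sets for BLM+INA, 6.96% for INA and 18.4% for BLM. The BLM+INA arrays lay above those of BLM for 9.63% and above those of INA for 17.1%.

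With both agents AT5G52750 stood 4.15 ± 0.18 above CK (log2 difference ± SE from limma, 3 arrays a group), which is 17.7-fold, and AT5G52760 stood 3.70 ± 0.16 above it, which is 13.0-fold. The CK mean of AT5G52760 lay 0.59 below a median level that was itself under 4. Low signal could therefore limit its folds and its linear values. Whether it did, and how far, was not tested. Ordered by this difference over all probe sets, AT5G52750 was in rank 22 and AT5G52760 in rank 29. Other probe sets thus differed more, and the pair was less outlying in this contrast than in the gap to the other 9 arrays.

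With INA alone AT5G52750 stood 1.04 ± 0.18 above CK, or 2.05-fold, in rank 75 of all probe sets. With BLM alone it stood 1.01 ± 0.18 above CK, or 2.01-fold, in rank 252. For AT5G52760 the difference was 0.74 ± 0.16 with INA, or 1.67-fold (rank 133), and 0.49 ± 0.16 with BLM, or 1.41-fold (rank 1034). INA minus BLM was 0.03 ± 0.18 for AT5G52750 and 0.25 ± 0.16 for AT5G52760, and the INA and BLM arrays of both genes overlapped.

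Adding INA to BLM left AT5G52750 3.14 ± 0.18 and AT5G52760 3.21 ± 0.16 above BLM alone. Adding BLM to INA left AT5G52750 3.11 ± 0.18 and AT5G52760 2.96 ± 0.16 above INA alone. Each agent thus went with a difference of close to 3 log2 units when the other was present and of about 1 or less when it was absent. After quantile normalization of the centred values the differences were 2.06 (AT5G52750) and 2.11 (AT5G52760) against BLM, and 2.03 (AT5G52750) and 1.87 (AT5G52760) against INA. These comparisons share the BLM+INA arrays, so they are not separate observations.

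Had the single changes added up on the log2 scale, the product of the single folds would have been 4.14 for AT5G52750 and 2.36 for AT5G52760. BLM+INA stood 2.10 ± 0.26 log2 units above that product for AT5G52750 and 2.46 ± 0.23 above it for AT5G52760, in ranks 9 and 4 of all probe sets. On a linear scale, with the CK mean set as the unit, AT5G52750 averaged 17.9 with BLM+INA, 2.10 with INA and 2.01 with BLM. The increase with both agents was 16.9 CK units, 7.99 times the 2.11 units obtained by adding the single increases. AT5G52760 averaged 13.1 with BLM+INA, 1.69 with INA and 1.43 with BLM, and its increase of 12.1 units was 10.8 times the summed single increases of 1.12. On both scales, then, the pair lay above additive values. After quantile normalization of the centred values the log2 excess was 1.10 for AT5G52750 and 1.39 for AT5G52760.

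**Figure D2:**
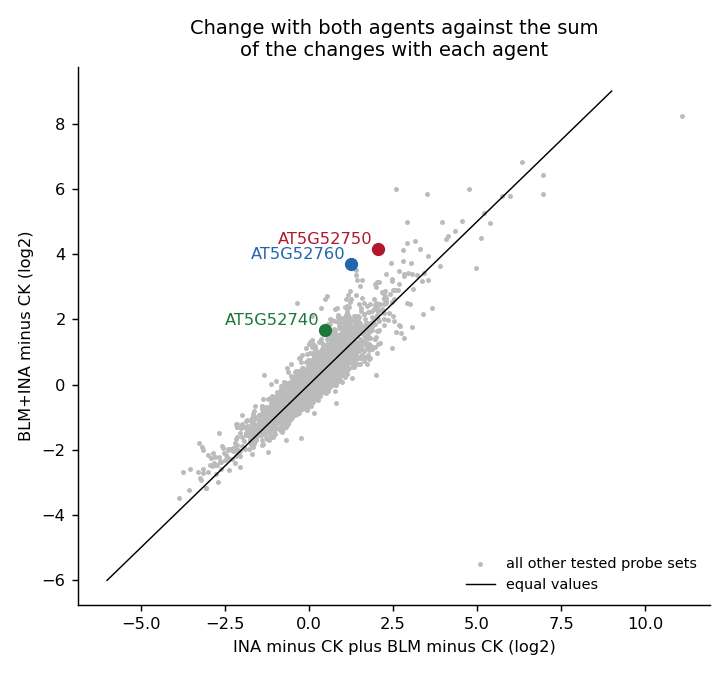
The log2 difference between BLM+INA and CK (vertical axis) against the sum of the INA and BLM differences from CK (horizontal axis), 1 point per tested probe set, with the line of equal values. AT5G52750 and AT5G52760 lie 2.10 and 2.46 above the line and AT5G52740 lies 1.21 above it.

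AT5G52750 averaged further from CK than AT5G52760 in each treated group. On each array, AT5G52760 minus AT5G52750 averaged -0.04 ± 0.30 with BLM+INA, 0.11 ± 0.19 with INA, -0.11 ± 0.22 with BLM and 0.41 ± 0.24 in CK (SD, n = 3 each; a difference of centred values, of which only the shift between groups can be read). AT5G52750 exceeded AT5G52760 in its distance from CK by 0.45 with BLM+INA, 0.30 with INA and 0.52 with BLM. The same CK arrays enter all 3 values, so they are not separate observations. AT5G52760, with a median level under 4, was lowest in CK, so low signal could limit these values. Whether it did, and how far, was not tested. AT5G52760 minus AT5G52750 ran from -0.35 to 0.25 on the BLM+INA arrays and from -0.05 to 0.31 on the INA arrays. It ran from -0.29 to 0.13 on the BLM arrays and from 0.15 to 0.62 on the CK arrays. The BLM arrays thus lay below the CK arrays, and the BLM+INA and INA arrays overlapped them.

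Within groups the pair also moved together in part. INA replicate 3 was the highest INA array for both genes, by 0.46 above the group mean for AT5G52750 and by 0.30 for AT5G52760. BLM+INA replicate 2 was the lowest of its group for both, at -0.29 for AT5G52750 and -0.26 for AT5G52760, and BLM replicate 1 was the lowest BLM array for both. CK replicate 1, by contrast, was the highest CK array for AT5G52750 and the lowest for AT5G52760. Over the 12 arrays, the deviations from the group means had a Pearson r of 0.60, given as a description, since all arrays were scaled together. The arrays numbered 3 deviated together over all probe sets (r from 0.23 to 0.40 between groups), and AT5G52750 lay above its group mean on each of those 4, by 0.02 to 0.46. On the 8 arrays without them, r was 0.46. There the deviations of replicates 1 and 2 in a group mirror each other, so r rests on 1 contrast per group. Between replicates 1 and 2 the genes moved in the same direction in BLM and BLM+INA. They moved in opposite directions in CK and INA.

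**Figure D3:**
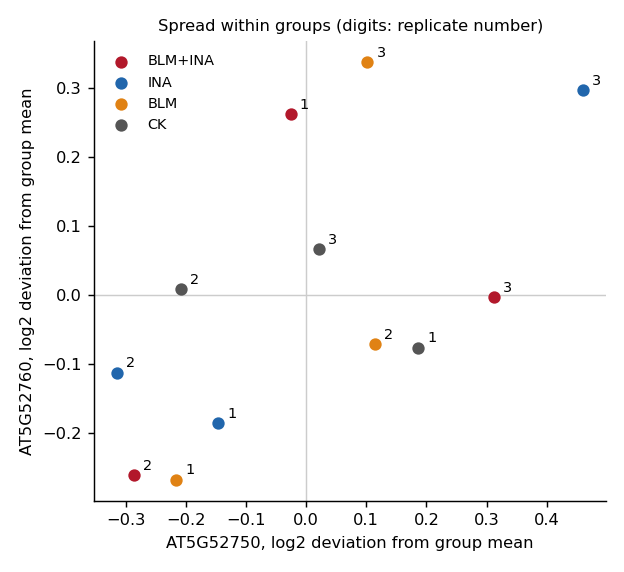
Deviation of each array from its group mean (log2) for AT5G52760 (vertical axis) against AT5G52750 (horizontal axis), with the replicate number beside each point and groups by colour. INA replicate 3 is at the upper right, and BLM+INA replicate 2 and BLM replicate 1 are at the lower left.

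The pair sits in a run of 14 protein-coding genes from AT5G52670 to AT5G52800, of which 12 had a probe set of their own. AT5G52700 and AT5G52730 were not paired with one in the gene table. Of the 10 measured neighbours, 8 had a median log2 level under 4, AT5G52790 lay between 4 and 8 and AT5G52780 lay at 8 or more. For the 8 low ones a small change could escape detection.

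AT5G52740 was the 1 neighbour of 10 that rose with BLM+INA against CK. It ends 546 bp before AT5G52750 starts, at chr5:21382482-21383432. Its centred log2 values were 1.65, 0.91 and 1.83 with BLM+INA, 0.02, -0.06 and -0.14 with INA, -0.08, 0.30 and 0.05 with BLM, and -0.51, -0.14 and -0.02 in CK. The BLM+INA arrays lay above the other 9, and the INA, BLM and CK arrays overlapped each other. It rose by 1.69 ± 0.19 (3.22-fold; limma, adjusted p = 2.55e-06 over all 22746 probe sets), where 11.2% of all probe sets rose.

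AT5G52740 stood at 0.16 ± 0.19 with INA (limma, adjusted p = 0.99) and at 0.31 ± 0.19 with BLM (adjusted p = 0.292) and passed with neither agent alone. It rose by 1.38 ± 0.19 in BLM+INA against BLM (limma, adjusted p = 0.000106; 3.44% of probe sets rose) and by 1.52 ± 0.19 in BLM+INA against INA (limma, adjusted p = 1.27e-05; 9.27% rose). Its excess over the sum of the single changes was 1.21 ± 0.26 and did not pass (limma, adjusted p = 0.0594), where 0.303% of probe sets passed upward. That excess passed without CK replicate 1 (1.36, limma adjusted p = 0.0385), without BLM+INA replicate 2 (1.49, limma adjusted p = 0.00139) and with the replicate number as a block (1.21, limma adjusted p = 0.0389). In 15 of 18 alternatives it did not pass, with 0.76 after quantile normalization (limma adjusted p = 0.19).

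On the other side of the pair, AT5G52770 starts 2051 bp after AT5G52760 ends and stood at 0.17 ± 0.10 with BLM+INA against CK (limma, adjusted p = 0.26). The 5 measured genes from AT5G52670 to AT5G52720 stood between 0.01 and 0.10 in the same comparison. AT5G52780 stood at 0.13 ± 0.11, AT5G52790 at -0.31 ± 0.15 and AT5G52800 at 0.12 ± 0.11, and none of these 3 passed. AT5G52790 was lower in BLM+INA than in INA, at -0.50 ± 0.15 (limma, adjusted p = 0.0254), which no longer passed when INA replicate 1 (-0.40) or 2 (-0.43), or BLM+INA replicate 1 (-0.49) or 2 (-0.47), was left out. Among the measured genes of the run, the 3 with differences above 1 log2 unit in that comparison with CK were AT5G52740, AT5G52750 and AT5G52760. The pair was picked as adjacent genes, so its adjacency is no result. AT5G52740, next to the pair, was 1 of 10 measured neighbours to rise, where 11.2% of all probe sets rose. Probe sequences were not used here, and whether probes of 1 gene in the run also bind transcripts of another was not tested.

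**Figure D4:**
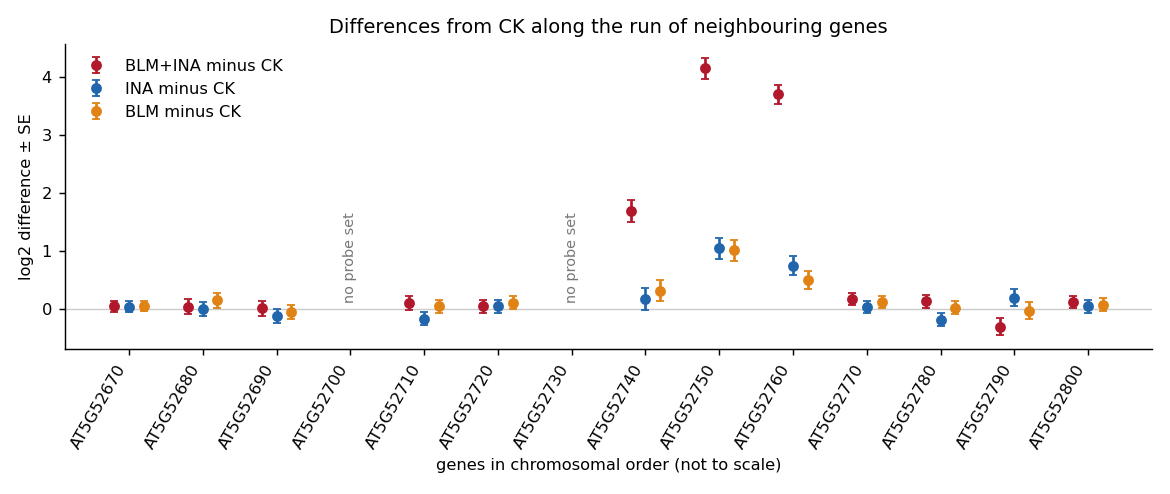
Log2 difference from CK ± SE (vertical axis) for BLM+INA, INA and BLM in each gene of the run, in chromosomal order and not to scale. AT5G52740, AT5G52750 and AT5G52760 stand at 1.69, 4.15 and 3.70 with BLM+INA, and the other measured genes lie between -0.31 and 0.17.

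Outside the run, the gene table paired 3 of 21 listed heavy-metal-domain genes with a probe set. These were CCS (AT1G12520), the copper chaperone of superoxide dismutase, AT5G60800 and AT2G28090. The gene table did not list 8730 probe sets, and whether the other genes lie among those was not checked. AT5G60800 had 0.73, 0.80 and 0.83 with BLM+INA, -0.20, -0.12 and -0.03 with INA, 0.22, 0.16 and 0.03 with BLM, and -0.35, -0.08 and -0.05 in CK. Its BLM+INA arrays were the 3 highest, and it rose by 0.95 ± 0.10 against CK, which is 1.93-fold (limma, adjusted p = 2.26e-06). It stood at 0.04 ± 0.10 with INA and 0.29 ± 0.10 with BLM, neither past the threshold. Its excess over the sum of the single changes was 0.61 ± 0.15 (limma, adjusted p = 0.106) and passed without CK replicate 1 (0.70, limma adjusted p = 0.0494). In 18 of 19 alternatives that excess did not pass, with 0.46 after quantile normalization (limma adjusted p = 0.429).

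CCS went the other way. Its values were -0.22, -0.42 and -0.68 with BLM+INA, 0.57, 0.47 and 0.55 with INA, -0.63, -0.44 and -0.48 with BLM, and 0.28, 0.22 and 0.35 in CK. Both BLM groups lay below both groups without BLM, and it fell by 0.72 ± 0.11 with BLM+INA (limma, adjusted p = 0.000109) and by 0.80 ± 0.11 with BLM (limma, adjusted p = 5.94e-05). With INA it stood at 0.25 ± 0.11 (limma, adjusted p = 0.626). AT2G28090 stood at 0.11 ± 0.13 with BLM+INA against CK and did not pass.

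Over the 13 genes of the run and the list besides the pair, 2 rose and 1 fell with BLM+INA against CK, 0 changed with INA (limma; 1 had an unadjusted p under 0.05) and 1 fell with BLM. For all probe sets the called share was 22.2% with BLM+INA (11.2% up, 11% down), 1.16% with INA (0.91% up, 0.251% down) and 16.7% with BLM (8.38% up, 8.29% down), so the share in the list was at or below the background for each agent alone and close to it for both. The median difference over the 13 genes was 0.10 with BLM+INA, 0.04 with INA and 0.07 with BLM, beside 0.02, 0.01 and 0.04 over all probe sets. In BLM+INA against BLM 2 of the 13 rose and 0 fell, beside 5.81% of all probe sets called, 2.37% downward. In BLM+INA against INA 2 rose and 2 fell, beside 18.8% called, with 9.52% of all probe sets downward. AT5G52780 stood at 0.32 ± 0.11 there (limma, adjusted p = 0.0602) and passed with array weights (0.32), with the replicate block (0.32) and without INA replicate 3 (0.42). It did not pass in 17 of 20 alternatives. The interaction called 0 of 13 (limma; 3 had an unadjusted p under 0.05), beside 0.382%.

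Of 39 listed genes of metal uptake, transport and storage, the gene table paired 2 with a probe set of their own. These were the zinc transporter family gene ZIP9 and the metallothionein gene MT1C. Whether other listed genes lie among the 8730 probe sets missing from the gene table was not checked. With BLM+INA against CK, ZIP9 stood at 0.44 ± 0.20 and MT1C at 0.18 ± 0.09, and neither passed. Both were higher in BLM+INA than in INA, where 9.27% of all probe sets were higher, ZIP9 by 0.64 ± 0.20 (limma, adjusted p = 0.0291) and MT1C by 0.30 ± 0.09 (limma, adjusted p = 0.0243). ZIP9 lost its call without INA replicate 2 (0.69) or 3 (0.51) or BLM+INA replicate 1 (0.43), and MT1C without INA replicate 1 (0.29) or 2 (0.29) or BLM+INA replicate 1 (0.28) or 3 (0.27).

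Tissue markers moved in the same comparison. With BLM+INA against CK, EXPA7 fell by 1.16 ± 0.12, EXPA18 fell by 1.08 ± 0.11, PSAN fell by 0.52 ± 0.09 and LHCB4.2 fell by 0.28 ± 0.09, and PYK10 stood at -0.02 ± 0.10. LHCB4.2 lost its call in each fit without 1 CK array (-0.29 to -0.27) or 1 BLM+INA array (-0.30 to -0.22). Among the root markers 2 of 3 fell and among the shoot markers 2 of 2, where 11% of all probe sets fell. With BLM alone EXPA7 fell by 1.21 ± 0.12, EXPA18 fell by 0.82 ± 0.11 and PSAN fell by 0.52 ± 0.09, where 8.29% of all probe sets fell. In BLM+INA against BLM, where the pair stood 3.14 and 3.21 higher, 0 of the 5 markers passed. Of all probe sets 5.81% were called there, and 2 markers had a limma unadjusted p under 0.05. In BLM+INA against INA, where the pair stood 3.11 and 2.96 higher, 4 of the 5 markers were lower. Of all probe sets 9.52% were lower there. The markers' part in the values of the pair was not tested.

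Likeness of pattern was measured by Pearson r over the 12 arrays among 13512 other probe sets with 1 gene. It is a description in which the 3 BLM+INA arrays carry most of the spread. The pair was picked for high values on those arrays, so its likeness was in part built in. AT5G52760 was in rank 1 for AT5G52750 and AT5G52750 in rank 2 for AT5G52760, with r = 0.99 over 12 arrays and 0.88 over the 9 arrays without BLM+INA. AT5G52740 was in rank 72 for AT5G52750 (r = 0.94) and in rank 50 for AT5G52760 (r = 0.94).

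After its neighbour, the genes most like AT5G52750 were the transcription factor gene WRKY53 (r = 0.985), AT3G01830, AT2G24160, AT3G48650, AT1G24140, AT1G78410 and AT2G24600, the last with r = 0.98. WRKY53 stood at 3.52 with BLM+INA, 0.55 with INA and 0.84 with BLM against CK. The 8 most like AT5G52760 were AT3G48650 (r = 0.99), AT5G52750, AT1G66880, AT2G24160, AT1G10340, AT3G60420, AT2G24600 and AT1G24140 (r = 0.98). AT3G48650 stood at 2.63 with BLM+INA, 0.71 with INA and 0.39 with BLM. The lists shared 4 of 8 genes, and the 50 most like each shared 33. By Spearman's rho, or by Pearson r of deviations from the group means, 0 of the 8 stayed among the 8 most like, for either gene. The other gene of the pair was among those lost.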

How the data were processed

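Total RNA was amplified, biotin-labelled and hybridized to 1-colour arrays, 1 per biological replicate. The deposited log2 values were made by the authors with RMA, per the submitters' processing notes, without a stated version. The values show that each probe set was centred on its median over the 12 arrays (largest absolute row median 5e-07). Base 2, on which every fold rests, was taken from RMA and is not written in the table. The broad level classes come from the spacing of the stored numbers. Of 22810 probe sets, 64 controls were left out. A gene table paired 13513 with 1 gene, 503 with several, and did not list 8730. Names came from RefSeq (TAIR10.1), where 77 of the 13513 had no match.

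All 12 arrays entered a single model of group means in limma 3.58.1 (R 4.3.3), with moderated variances. Tests were two-sided, adjusted by Benjamini-Hochberg over 22746 probe sets, with a threshold of 0.05. The model was also run on simulated arrays with independent noise. They lacked any shared deviation between same-numbered arrays, so that run does not bear on it. Figures used matplotlib 3.10.9 in Python 3.11.15.

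The pair, the lists and the rules were chosen with earlier results of these data known. No table of products was used here, so the heavy-metal-domain list was given by locus, with every gene of the run added whatever its product. Named were the pair, all measured genes of the run, listed genes that passed in at least 1 comparison (at most 8), and the 8 genes most like each of the pair. AT2G28090 and the genes of metal transport were named besides, after their values were seen. A planned search for promoter motifs was not run, since no sequence was used here. p-values judge group differences against the spread between replicates the labels call biological. That spread was pooled over the 4 groups and moderated over all probe sets. Alternatives were array centring, quantile normalization, array weights, robust variances, a replicate block, the compared groups only, a filter on median levels under 4, a threshold of 0.01, a linear scale and leaving out each array.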

Additional observations from a re-analysis of the deposited data

How the results depend on the processing

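Over 204 alternative values of the pair's log2 differences, all kept their sign and 195 moved by less than 1 SD. Many of the 195 could not move. Leaving out an array of a group outside the comparison, or adding the replicate block, returns the same difference by construction. One of the other 9 was the interaction of AT5G52760 without the 4 arrays numbered 3 (2.75), and 8 were those after quantile normalization of the centred values that involve BLM+INA. AT5G52750 then stood at 2.99 against CK, 2.06 against BLM, 2.03 against INA and 1.10 for the interaction, and AT5G52760 at 2.59, 2.11, 1.87 and 1.39 in the same order; the cause was not tested. On the linear scale the interaction was 14.7 CK units for AT5G52750 and 11.0 for AT5G52760, another unit by construction. Of 125 alternative counts of called genes among the 13, 120 stayed within 1.5 times. The replicate block gave 2 in BLM against CK (AT5G60800 and CCS, against 1) and 1 in the interaction (AT5G52740, against 0). Without median levels under 4, the count in BLM+INA against BLM was 1, since AT5G52740 was then left out. Leaving out 1 array, the interaction count ran from 0 to 2, with AT5G60800 and AT5G52740 called without CK replicate 1 and AT5G52740 without BLM+INA replicate 2. Over its alternatives, the interaction of AT5G52740 had limma adjusted p values from 0.00139 to 0.327, the highest without the 4 arrays numbered 3. LHCB4.2 (-0.29 against CK), ZIP9 (0.64) and MT1C (0.30, both against INA) lost their calls in BLM+INA without those 4. The INA difference of AT5G60800 from CK ran from -0.0517 (without CK replicate 1) to 0.0992 when 1 array was left out. With the compared groups only, LHCB4.2 (-0.28 against CK) and MT1C (0.30 against INA) lost their calls in BLM+INA, and AT5G60800 passed in BLM against CK with the replicate block (0.29). The alternatives for single genes besides the pair, the r over 9 arrays and the fits without the arrays numbered 3 were chosen after seeing the data. Same-numbered arrays of different groups deviated together in 10 of 18 pairs (r over 0.1, range -0.05 to 0.40). These were all 6 of number 3 (0.23 to 0.40), 4 of 6 of number 1 and 0 of 6 of number 2. Of 12 arrays, 6 correlated best with their own number. The numbers were not taken as pairing in the main fit. Its p-values thus take no account of the deviation shared by the arrays numbered 3. Apart from those named, the block changed no count by over 1.5 times. Low signal could limit what was seen in the 8 neighbours with median levels under 4.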
